A study of Bos taurus with 20 samples.

Results

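The levels of 6 microRNAs (miRNAs) known for targeting the enzymes of DNA methylation were examined in the spermatozoa of bulls of high and low fertility. The members were the rows named bta-miR-29a, bta-miR-29b and bta-miR-29c of the miR-29 family and bta-miR-148a, bta-miR-148b and bta-miR-152 of the miR-148/miR-152 family, 6 of the 1029 bovine miRNAs counted. They were chosen by name and by their known targets, not by their values, although earlier results of these data were known. Small RNA libraries had been made from 10 high fertility (HF) and 10 low fertility (LF) Holstein-Friesian bulls, each bull giving 1 library. The bulls of both groups had been selected by a fertility index that was adjusted by a statistical model on insemination records. No treatment was given to either group, and the labels give no age. The RNA of each bull came from frozen-thawed semen pooled over 3 ejaculates, and the spermatozoa had been treated with a lysis buffer for somatic cells before extraction.

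A miRNA guides a silencing complex to messenger RNAs through its seed, the bases near its 5′ end, and lowers their translation and stability. miRNAs of one family share the seed and therefore much of their target range. The miR-29 family is known for targeting DNMT3A and DNMT3B, the methyltransferases that set new methylation marks, and miR-29 members also target TET enzymes and collagens in other tissues. The miR-148/miR-152 family is known for targeting DNMT1, which copies methylation onto the new DNA strand after replication. In the male germ line, methylation is erased and set anew before birth, and the paternal genome loses much of it again in the zygote, to which the spermatozoon also delivers its small RNAs.

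The genes of the members lie at several places in the genome. By their order in the gene table of the assembly ARS-UCD2.0, MIR29A was the neighbour of MIR29B-1, and MIR29B-2 the neighbour of MIR29C. The mature bta-miR-29b can thus come from 2 loci, and its level cannot be divided between them. MIR148B overlapped COPZ1 and MIR152 overlapped COPZ2, while MIR148A stood apart from both. The table also had rows for 5 further forms of these families. bta-miR-148c and bta-miR-148d, whose genes overlap MIR152 and MIR148A, had 0 reads in all 20 libraries. This allows a level of up to 0.128 CPM of the counted reads for each, taking 3 reads as the floor over all libraries, and covers counting error only. bta-miR-29e had 1 read, in HF bull 14. The arms bta-miR-29d-3p and bta-miR-29d-5p were low, with 2 to 36 and 6 to 109 reads per library.

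The values were normalised read counts, on a scale close to CPM, the count of a miRNA relative to a fixed library total. The reads behind them could be recovered, since nearly every value was a whole multiple of the value of 1 read. The libraries held between 103204 and 3097581 counted reads, with a median of 1092881 in HF and 1085742 in LF bulls. Both extremes were HF bulls, number 17 the shallowest and number 2 the deepest, and the shallowest LF library, of bull 11, held 310186 reads. The miRNAs fixed as germ line markers (bta-miR-34b, bta-miR-34c, bta-miR-449a, bta-miR-449b and bta-miR-449c) were counted at 4.58% ± 0.947 (SD, n = 20) of all counts. All 5 were detected. Markers of epithelial cells made up 1.14% ± 0.260 (SD, n = 20), those of blood and immune cells 0.0137% ± 0.00733 (SD, n = 20), those of muscle 0.0523% ± 0.0588 (SD, n = 20) and those of endothelial and stromal cells 0.0245% ± 0.0144 (SD, n = 20). In such bulk libraries, fewer cells of a type and less RNA per cell cannot be told apart. By RT-PCR the paper found no product of PTPRC, CDH1 or KIT, its test genes for leukocytes, epithelial cells and germ cells. It also describes that spermatozoa take up non-coding RNAs from epididymosomes on their way through the epididymis. The source of the marker miRNAs was not tested.

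All 6 members were counted in all 20 libraries. The most abundant was bta-miR-148a, at rank 10 of the 1029 miRNAs by mean level, with 1702 to 42376 reads per library. Its normalised count was 17944 ± 3607 (SD, n = 20), which was 1.80% ± 0.417 (SD, n = 20) of all counts. bta-miR-29a was at rank 38 with 2921 ± 563 (SD, n = 20), and bta-miR-148b at rank 39 with 2764 ± 507 (SD, n = 20). bta-miR-152 followed at rank 79 with 621 ± 196 (SD, n = 20). bta-miR-29b and bta-miR-29c were rare, at ranks 185 and 207. Their normalised counts were 62.2 ± 21.8 (SD, n = 20) and 40.6 ± 7.60 (SD, n = 20), on medians of 68.5 and 41.5 reads per library.

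The members were ordered by mean level over these same 20 libraries, so the direction of each step came from the data tested. Each step was tested within libraries, as the log2 ratio of a member to the next lower one. The test was a two-sided permutation of the mean ratio by sign flips, with 100000 resamples, adjusted over the 5 ratios. bta-miR-148a was above bta-miR-29a in 20 of 20 bulls, by a log2 ratio of 2.62 ± 0.36 (SD, n = 20, permutation p = 1e-05, the smallest these permutations can give, adjusted p = 2.5e-05). bta-miR-29a and bta-miR-148b could not be ordered, with a log2 ratio of 0.08 ± 0.26 (SD, n = 20) and bta-miR-29a the higher in 11 of 20 bulls (permutation p = 0.197). bta-miR-148b was above bta-miR-152 in all 20 bulls, by 2.20 ± 0.36 (SD, n = 20, permutation test, adjusted p = 2.5e-05). bta-miR-152 was above bta-miR-29b in all 20, by 3.32 ± 0.63 (SD, n = 20, permutation test, adjusted p = 3.33e-05). The last step, from bta-miR-29b to bta-miR-29c, was small, 0.54 ± 0.47 (SD, n = 20), with bta-miR-29b the higher in 17 of 20 bulls (permutation test, adjusted p = 0.000288). Ligation and amplification can differ between miRNAs, so that the order is one of read counts, and how far it follows the number of molecules was not tested.

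**Figure D1:**
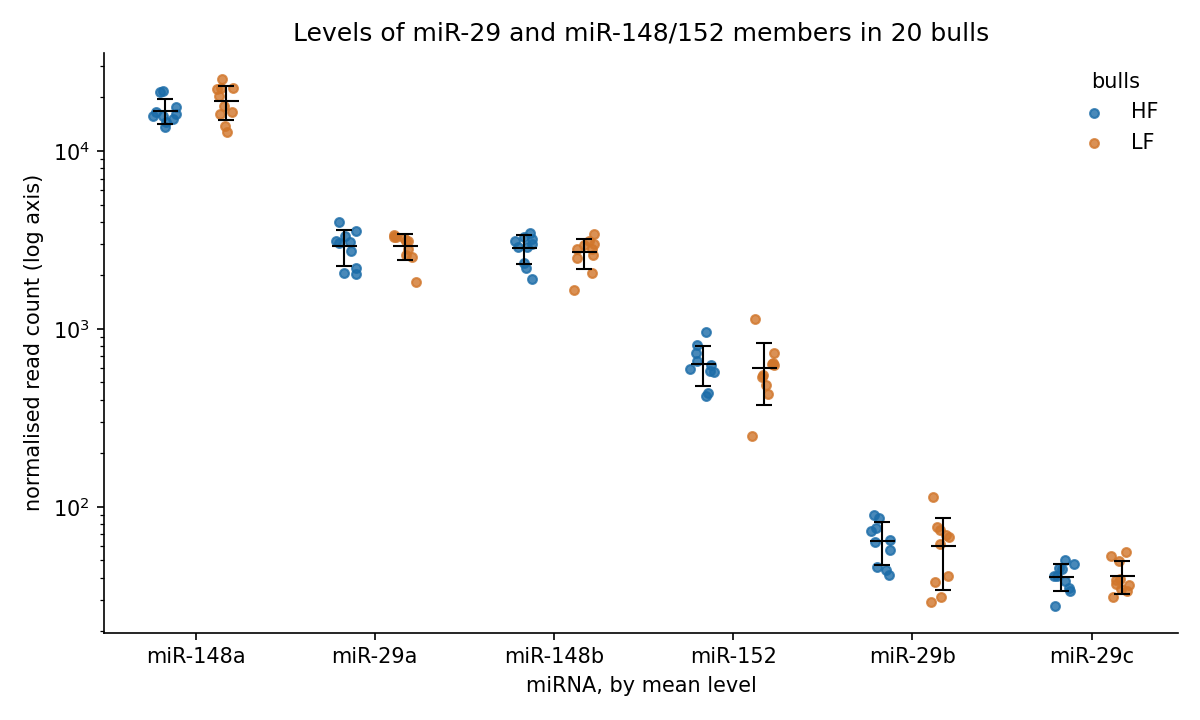
Normalised read count (log axis) of each member in the 10 HF (blue) and 10 LF (orange) bulls. Points are bulls and black bars the mean ± SD of a group. The HF and LF points overlap for every member, and bta-miR-148a lies above the others in every bull.

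Here and in the totals below, a family stands for its 3 members alone, without further forms such as the arms of bta-miR-29d. Each family was dominated by 1 member. bta-miR-29a made up 96.6% ± 0.653 (SD, n = 20) of the counts of its family, bta-miR-29b 2.04% ± 0.550 (SD, n = 20) and bta-miR-29c 1.37% ± 0.281 (SD, n = 20). Over the bulls the share of bta-miR-29a ranged from 95.05% to 97.5%. bta-miR-148a made up 83.9% ± 3.25 (SD, n = 20) of the miR-148/miR-152 family, bta-miR-148b 13.1% ± 2.44 (SD, n = 20) and bta-miR-152 2.98% ± 1.07 (SD, n = 20). The share of bta-miR-148a ranged over the bulls from 78.2% to 89.0%. The miR-29 family held 0.304% ± 0.0674 (SD, n = 20) of all counts and the miR-148/miR-152 family 2.14% ± 0.436 (SD, n = 20). The family linked to DNMT1 was therefore counted 7.25 ± 1.53 (SD, n = 20) times as often as the family linked to DNMT3A and DNMT3B, with a range over the bulls from 4.58 to 10.0.

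The spread of the abundant members between bulls was well above that of counting. The coefficient of variation (CV) over the 20 bulls was 20.1% for bta-miR-148a, where counting error alone gives 0.950%. For bta-miR-29a it was 19.3% against 2.48% from counting, and for bta-miR-148b 18.4% against 2.55%. The median CV of the 100 most abundant miRNAs was 30.2%. A lower CV than that of bta-miR-148a, bta-miR-29a and bta-miR-148b was found in 17, 15 and 9 of these. Over all 435 tested miRNAs the median was 48.0%, so that the CV was lower at higher levels. Among miRNAs more abundant than bta-miR-148a, bta-miR-191 (14.4%) and bta-miR-99a-5p (16.8%) were less variable, and bta-miR-34c (24.2%) and bta-miR-2284x (37.1%) more so. Whether the members had a low CV for their own level was not tested. bta-miR-152 was more variable than bta-miR-148a, bta-miR-29a and bta-miR-148b, with a CV of 31.5% against 5.46% from counting. bta-miR-29b varied most, with 35.0% against 17.3%. The spread of bta-miR-29c, 18.7%, was not larger than the 20.7% that counting error gives. Differences between bulls in bta-miR-29c were thus not detectable over the 20 bulls at this depth. The counting figure was raised by HF bull 17, with 3 reads. In HF bulls the CV was 17.3% against 23.2% from counting, and in LF bulls 21.0% against 17.8%. These figures cover counting error only, since reads amplified by PCR without molecular identifiers are not independent molecules.

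**Figure D2:**
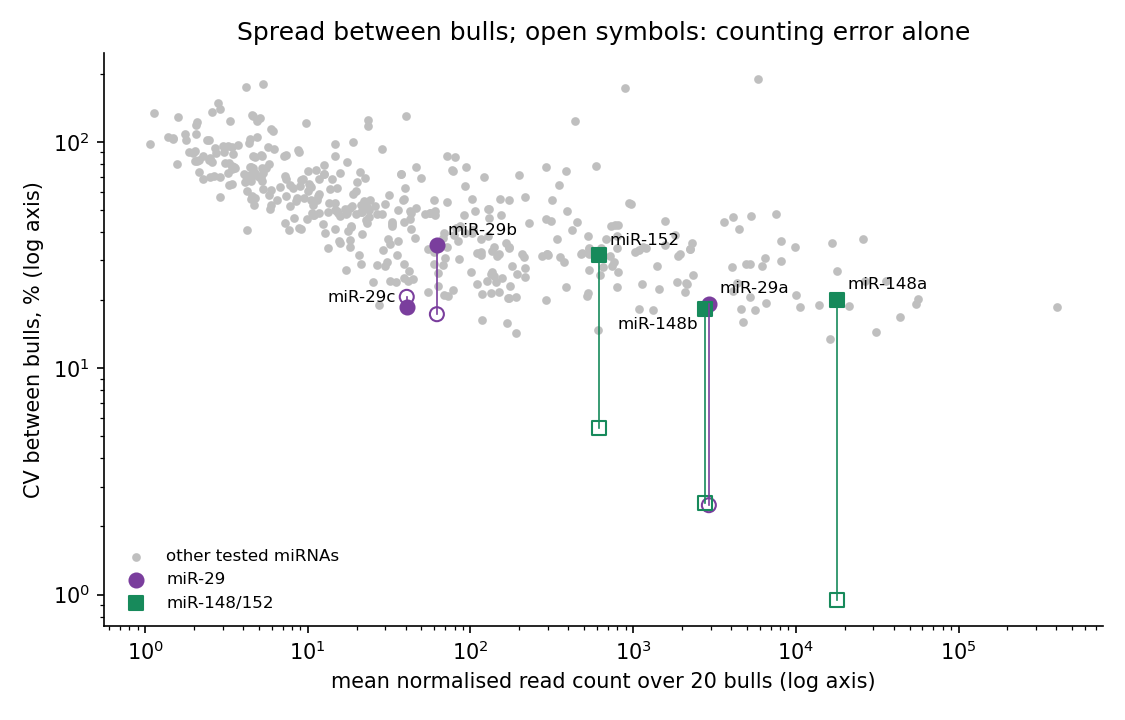
CV between the 20 bulls (percent, log axis) against the mean normalised read count (log axis) of the tested miRNAs. Grey points are the other miRNAs, filled symbols the members, and open symbols joined to them the CV that counting error alone gives. For bta-miR-148a the filled symbol is at 20.1% and the open one at 0.950%, while for bta-miR-29c the open symbol, at 20.7%, is above the filled one.

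Whether the members differed between HF and LF bulls was tested with limma on log2(normalised count + 1), fitted over the 435 miRNAs that passed a filter on low values, all 6 members among them. A miRNA was called at the study's thresholds, a fold change above 1.5 with p under 0.05 before adjustment. None of the 6 members passed, and 0 of them had an unadjusted p-value under 0.05 (limma). Of all 435 miRNAs, 9 passed both thresholds, 2.07% of those tested, and 15 had an unadjusted p-value under 0.05. After Benjamini-Hochberg adjustment over the 435, 0 miRNAs (0%) had a p-value under 0.05. The tests on the recovered reads also gave 0 after adjustment, and 13 (edgeR quasi-likelihood), 12 (edgeR likelihood ratio) and 11 (DESeq2) miRNAs past both thresholds, with 18, 16 and 18 at an unadjusted p-value under 0.05. Of the members, 3 had a fold change above 1 in HF bulls and 3 below it, with a median log2 fold change of 0.04, where that of all 435 was 0.01. For 5 of the 6 members, the whole 95% confidence interval lay within a fold change of 1.5 in either direction, on the scale of the normalised count + 1. The exception was bta-miR-29b.

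bta-miR-148a had the largest difference relative to its error. Its normalised count was 13668 at the lowest (bull 2), 16019 at the median and 21734 at the highest (bull 12) in HF bulls. In LF bulls it was 12792 (bull 4), 19088 and 25293 (bull 5). LF bulls 5, 7, 8 and 13 were above every HF bull, the lowest bull was also an LF bull, and only 2 of 10 HF bulls were above the LF median. The log2 fold change, HF over LF, was -0.16 with a standard error of 0.13 (95% interval -0.43 to 0.11, p = 0.240, adjusted p = 0.942 from limma). The difference did not exceed the spread between bulls, and the interval, a fold change of 0.740 to 1.08, does not hold a change of 1.5-fold in either direction.

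bta-miR-148b, from the gene within COPZ1, lay between 1912 (bull 17) and 3455 (bull 15) in HF bulls, with a median of 2949. In LF bulls it lay between 1649 (bull 11) and 3423 (bull 19), with a median of 2805. The groups overlapped almost wholly, and in both the lowest bull was the one with the shallowest library. The log2 fold change was 0.08 with a standard error of 0.14 (95% interval -0.22 to 0.38, p = 0.582, adjusted p = 0.957 from limma), and 0.0047 without LF bull 11.

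bta-miR-152 had values of 419 (bull 6), 611 and 955 (bull 15) as the lowest, median and highest in HF bulls, and of 250 (bull 11), 588 and 1138 (bull 1) in LF bulls. LF bulls held both extremes. The highest LF bull was at 4.55 times the lowest, where the same ratio in HF bulls was 2.28. The log2 fold change was 0.13 with a standard error of 0.21 (95% interval -0.29 to 0.56, p = 0.525, adjusted p = 0.957 from limma), and 0.0036 without LF bull 11.

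bta-miR-29a, the most abundant of the miR-29 members, was at 2040 (bull 17), 3049 and 4000 (bull 15) in HF bulls. In LF bulls it was at 1844 (bull 11), 3127 and 3389 (bull 20). HF bulls 6, 9 and 17 were low, and apart from LF bull 11 the LF bulls lay within the HF range. The log2 fold change was -0.02 with a standard error of 0.15 (95% interval -0.32 to 0.28, p = 0.895, adjusted p = 0.987 from limma).

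bta-miR-29b was at 41.4 (bull 6), 64.5 and 90.0 (bull 15) in HF bulls, and at 29.1 (bull 7), 64.4 and 114 (bull 13) in LF bulls. The medians were nearly equal, but LF bulls 1, 4, 7 and 11 were below every HF bull and LF bull 13 was above every HF bull. The value of LF bull 11 rested on 10 reads, and that of HF bull 17, 46.0, on 5. The log2 fold change was 0.17 with a standard error of 0.24 (95% interval -0.33 to 0.67, p = 0.486, adjusted p = 0.957 from limma). The upper bound is a fold change of 1.59, so that a difference of 1.5-fold could have been missed for this member.

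bta-miR-29c was at 27.6 (bull 17), 40.9 and 50.2 (bull 9) in HF bulls, and at 30.9 (bull 11), 37.9 and 55.4 (bull 19) in LF bulls. No LF bull was below the HF range and 2 were above it. The log2 fold change was -0.01 with a standard error of 0.17 (95% interval -0.36 to 0.35, p = 0.969, adjusted p = 0.987 from limma). The value of 27.6 in HF bull 17 rested on 3 reads.

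The arms of bta-miR-29d did not pass either. HF bulls had a mean bta-miR-29d-3p of 12.9 ± 3.55 (SD, n = 10) and LF bulls 12.6 ± 6.38 (SD, n = 10), which limma gave as a log2 fold change of 0.18 with an error of 0.30 (p = 0.559). For bta-miR-29d-5p these means were 33.2 ± 12.9 (SD, n = 10) and 29.3 ± 10.5 (SD, n = 10), with its highest level in the shallowest library of each group, 55.1 in HF bull 17 and 49.4 in LF bull 11 (log2 fold change 0.14, standard error 0.25, p = 0.573 from limma).

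**Figure D3:**
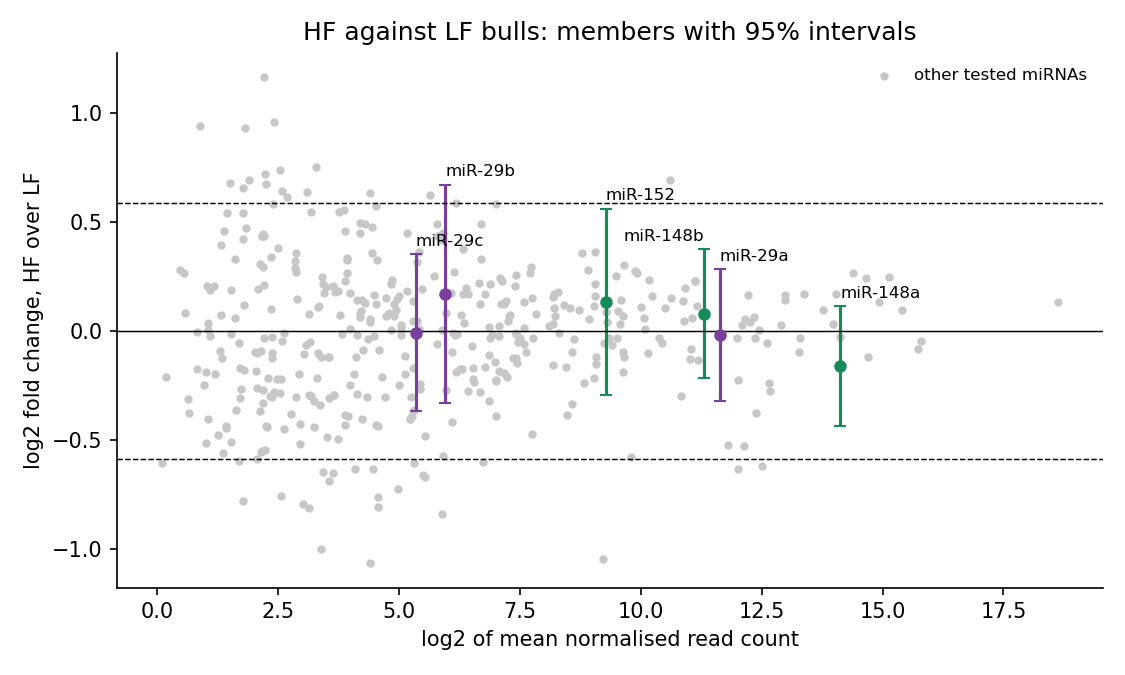
Log2 fold change, HF over LF bulls, against the log2 mean normalised read count. Grey points are the other tested miRNAs, coloured points the members of miR-29 (purple) and miR-148/miR-152 (green) with 95% intervals, and dashed lines a fold change of 1.5; bta-miR-29a and bta-miR-148b are moved sideways a little to keep them apart. Every interval of a member includes 0, and that of bta-miR-29b alone crosses a dashed line.

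As a family total, HF bulls had 0.296% ± 0.0700 (SD, n = 10) of their counts in miR-29, and LF bulls 0.312% ± 0.0675 (SD, n = 10). The share of the miR-148/miR-152 family was 1.99% ± 0.298 (SD, n = 10) for HF bulls, against 2.29% ± 0.513 (SD, n = 10) for LF bulls. The ratio of the families was 6.97 ± 1.48 (SD, n = 10) for HF bulls, against 7.52 ± 1.60 (SD, n = 10) for LF bulls. These totals were not tested, and the ranges of the groups overlapped in each.

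The balance between members within a library was compared between the groups for 3 pairs (two-sided permutation tests with 100000 resamples, adjusted over the 3). Apart from the 1 added to each value, it does not depend on how libraries are scaled. Depth is another matter, since r of the level with the number of counted reads was 0.20 for bta-miR-148a, 0.62 for bta-miR-148b and 0.50 for bta-miR-152. The part of depth in the ratios was not tested. The log2 ratio of bta-miR-148a to bta-miR-148b was 2.58 ± 0.30 (SD, n = 10) for HF bulls against 2.82 ± 0.32 (SD, n = 10) for LF bulls. Its lowest, median and highest values were 2.20, 2.59 and 3.03 in HF and 2.42, 2.82 and 3.33 in LF bulls. The 3 lowest bulls were HF bulls and 3 of 10 HF bulls were above the LF median, but the groups overlapped over most of their range. The difference was -0.24 with a standard error of 0.14 (permutation p = 0.104, adjusted p = 0.312). The log2 ratio of bta-miR-148a to bta-miR-152 was 4.75 ± 0.45 (SD, n = 10) for HF bulls against 5.04 ± 0.61 (SD, n = 10) for LF bulls, a difference of -0.29 with a standard error of 0.24 (permutation p = 0.235, adjusted p = 0.353). Only 2 of 10 HF bulls were above the LF median of this ratio, although the lowest bull of all was an LF bull, at 3.87. The log2 ratio of bta-miR-29a to bta-miR-29c was 6.12 ± 0.34 (SD, n = 10) for HF bulls against 6.13 ± 0.24 (SD, n = 10) for LF bulls, a difference of -0.01 with a standard error of 0.13 (permutation p = 0.926, adjusted p = 0.926).

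**Figure D4:**
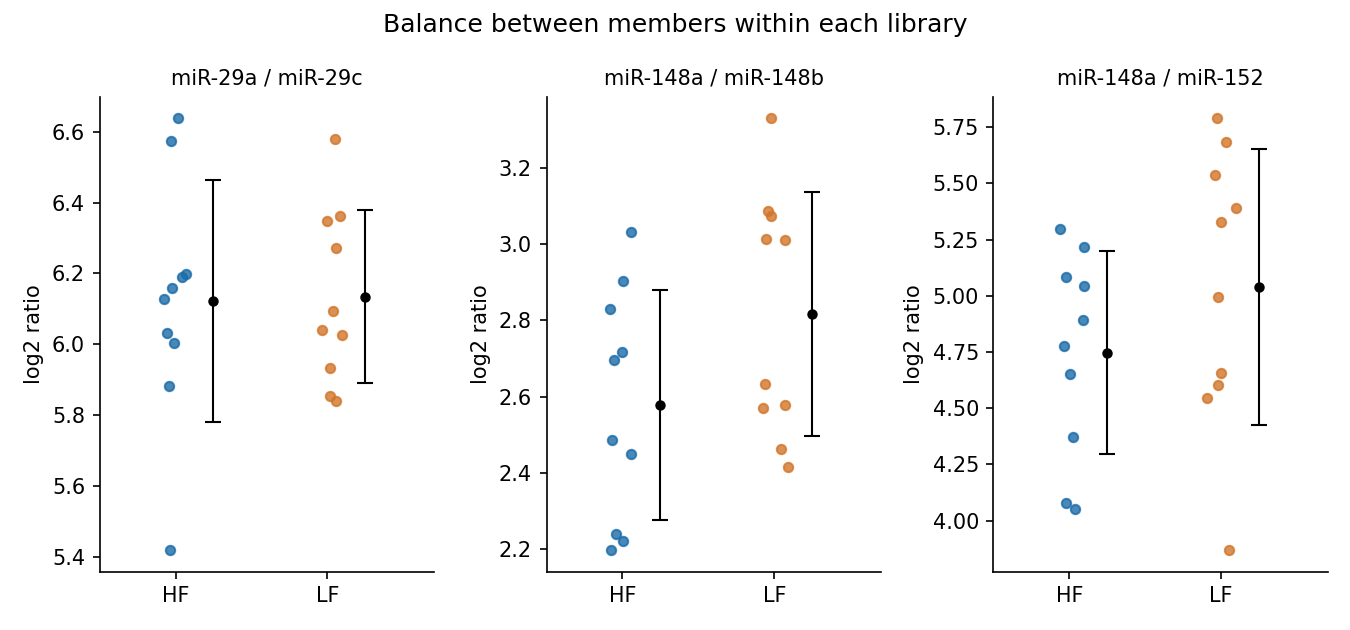
Log2 ratio of 2 members within each library, in HF (blue) and LF (orange) bulls, on axes that do not start at 0. Points are bulls and black points with bars the mean ± SD of 10 bulls. bta-miR-148a relative to bta-miR-148b has group means of 2.58 in HF and 2.82 in LF bulls with overlapping points, while bta-miR-29a relative to bta-miR-29c has nearly equal means.

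Other miRNAs reported to act on DNA methylation were taken from a list of 11, with 6 known for targeting DNMT1, 2 for DNMT3A and 3 for TET enzymes, which remove methylation. Of the 10 that were tested, 5 had a fold change above 1 in HF bulls and 5 below it, 0 passed the thresholds and 0 had an unadjusted p-value under 0.05 (limma), with a median log2 fold change of -0.01. bta-miR-22-3p, which targets TET enzymes, was at 17938 ± 4836 (SD, n = 20), close to the level of bta-miR-148a (log2 fold change -0.03 from limma). bta-miR-101, linked to DNMT3A, was at 5583 ± 1008 (SD, n = 20, log2 fold change 0.01), and bta-miR-26a, linked to TET enzymes, at 2338 ± 605 (SD, n = 20, log2 fold change -0.13). The smallest p-value in the list was that of bta-miR-185, which targets DNMT1, with a mean of 51.6 ± 29.2 (SD, n = 10) for HF bulls against 69.1 ± 26.8 (SD, n = 10) for LF bulls (p = 0.0934, log2 fold change -0.57 from limma). bta-miR-377 was too low to be tested.

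None of the cell type markers passed the thresholds between HF and LF bulls, but some lists leaned one way. All 5 germ line markers were higher in HF bulls, with a summed normalised count of 32093 to 77203 in HF and 25829 to 54584 in LF bulls. All 6 epithelial markers were lower in HF bulls, with a median log2 fold change of -0.40 and a summed count of 6544 to 13138 in HF and 9680 to 15554 in LF bulls. Of these, 2 had an unadjusted p-value under 0.05 (limma), as did 15 of all 435 tested miRNAs. Of the 435, 218 were higher and 217 lower in HF bulls. bta-miR-200a, the most abundant of the list at 6567 ± 1275 (SD, n = 20), had a log2 fold change of -0.28 (p = 0.0402, adjusted p = 0.942 from limma), and bta-miR-429 one of -0.47 (p = 0.0135, adjusted p = 0.942 from limma). Several of these miRNAs are transcribed together, so that their directions are not independent. Of the tested markers, those of blood and immune cells had 3 higher and 2 lower in HF bulls, those of muscle 4 higher and 0 lower, and those of endothelial and stromal cells 4 higher and 1 lower. Over all 20 bulls, the level of bta-miR-148a had r = 0.53 and rho = 0.60 with the summed epithelial list (permutation p = 0.0151 and 0.00637, adjusted p = 0.133 and 0.0956 over 30 relations of the 6 members with 5 lists), which did not hold after adjustment. Without the 2 bulls farthest from the median of the list, r was 0.51. The part of the epithelial markers in the lower mean of bta-miR-148a in HF bulls was not tested.

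Of the 30 relations, 1 passed after adjustment, that of bta-miR-29b with the summed blood and immune list (bta-miR-451, bta-miR-144, bta-miR-223, bta-miR-142-3p, bta-miR-142-5p and bta-miR-150). Pearson's r was 0.78 (n = 20, permutation p = 8e-05, adjusted p = 0.0024) and Spearman's rho 0.76 (permutation p = 0.00015, adjusted p = 0.0045), and r was 0.83 without the 2 bulls farthest from the median of the list. Within the groups r was 0.76 in HF and 0.81 in LF bulls. The summed list was at 51.2 in LF bull 7, which also had the lowest bta-miR-29b of all bulls, and at 239 in HF bull 15, which had the highest bta-miR-29b of the HF bulls. LF bull 5 went against this, with the highest sum, 301, and a bta-miR-29b level of 61.5. The sum was mostly bta-miR-142-5p, known from leukocytes, with a mean of 92.6 ± 59.0 (SD, n = 20), where the next, bta-miR-150, had 21.1 ± 15.5 (SD, n = 20). Of the single markers, bta-miR-142-5p had an r of 0.72 with bta-miR-29b. The others were lower, with 0.55 for bta-miR-142-3p, 0.48 for bta-miR-150, 0.37 for bta-miR-451, 0.27 for bta-miR-144 and -0.23 for bta-miR-223, known from granulocytes. The median reads per library were 67.5 for bta-miR-142-5p, 16.5 for bta-miR-150 and 11.5 for bta-miR-451. They were 2 for bta-miR-142-3p and bta-miR-223 and 0 for bta-miR-144. The sum, and with it the relation, rested mainly on bta-miR-142-5p. Whether the other markers were less related to bta-miR-29b cannot be told at so few reads. Of 191 other miRNAs with a median of at least 50 reads, 9 had a higher r with the list, and their median r was 0.09. The list ranged from 65.9 to 239 in HF and from 51.2 to 301 in LF bulls, and its part in the level of bta-miR-29b was not tested.

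Among the members themselves, 5 of the 15 pairs were correlated over the 20 bulls by Pearson's r after adjustment over the 15, and 0 by Spearman's rho. A gene of bta-miR-29b neighbours that of bta-miR-29a, but the part of this in their correlation was not tested. The pair with the highest r was bta-miR-29a with bta-miR-29b (r = 0.63, rho = 0.52, permutation p = 0.00254 and 0.0213, adjusted p = 0.0206 and 0.107). The others were bta-miR-148b with bta-miR-152 (r = 0.63, rho = 0.58), bta-miR-29a with bta-miR-148b (r = 0.61, rho = 0.39), bta-miR-29b with bta-miR-148b (r = 0.59, rho = 0.59) and bta-miR-29a with bta-miR-152 (r = 0.58, rho = 0.46), so that 3 of the 5 joined members of different families. For these 4 pairs the permutation p of r was between 0.0034 and 0.00706 (adjusted p at most 0.0212), and the adjusted p of rho between 0.0671 and 0.193. bta-miR-148a was in none of the 5, and its r with bta-miR-152 of the same family was 0.00. For comparison, the median r over the 18528 pairs of 193 miRNAs with enough reads was 0.03, with an interquartile range of -0.23 to 0.29.

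**Figure D5:**
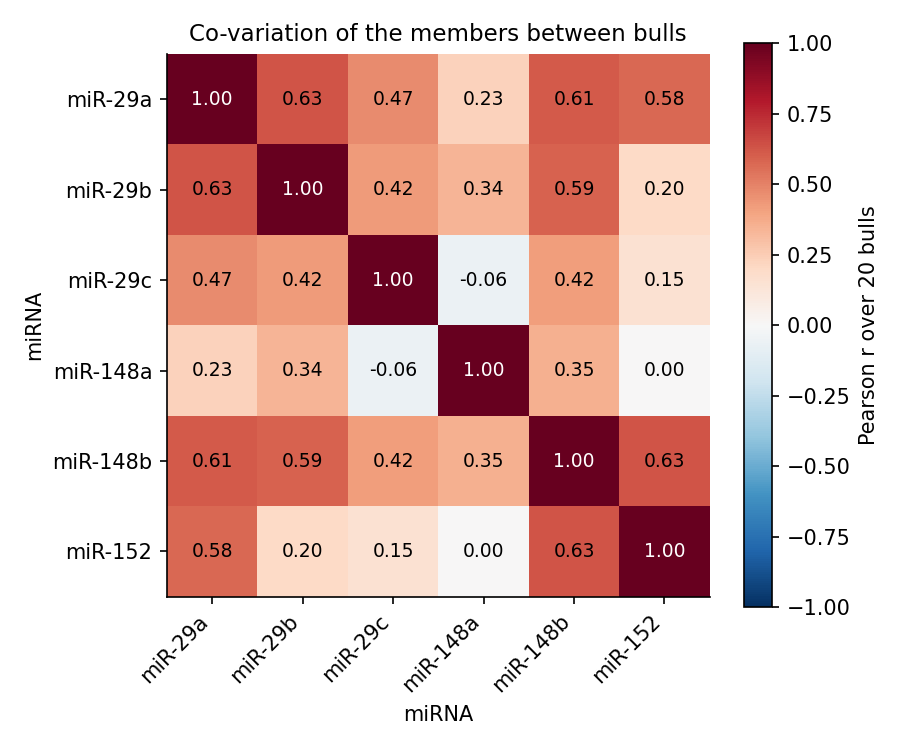
Pearson r of the log2 levels of each pair of members over the 20 bulls, coloured from blue (-1) to red (1). bta-miR-148a has values between -0.06 and 0.35 with the other 5 members, and bta-miR-29a has 0.63 with bta-miR-29b, 0.61 with bta-miR-148b and 0.58 with bta-miR-152.

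The correlations were weaker without the shallowest libraries. Without the 2 bulls farthest from the median of the first named member, r of bta-miR-29b with bta-miR-148b was 0.56, and for the other 4 pairs those 2 bulls were the ones with the shallowest libraries. LF bull 11 had the lowest bta-miR-29a, bta-miR-148b and bta-miR-152 of all bulls, and HF bull 17 the second lowest bta-miR-29a and bta-miR-148b. Without these 2 bulls, 0 of the 15 pairs passed after adjustment, and r was 0.52 for bta-miR-29a with bta-miR-29b, 0.27 with bta-miR-148b and 0.40 with bta-miR-152, 0.45 for bta-miR-29b with bta-miR-148b and 0.44 for bta-miR-148b with bta-miR-152. The level itself moved with the number of counted reads for bta-miR-148b (r = 0.62, rho = 0.49, permutation test, p adjusted over 6 members 0.0193 and 0.0978) and for bta-miR-29a (r = 0.59, rho = 0.37, adjusted p = 0.0193 and 0.226, permutation test), but r was 0.27 for each without the 2 farthest libraries. For bta-miR-152 it was r = 0.50 and rho = 0.59 (adjusted p = 0.0616 and 0.0437, permutation test), and r stayed at 0.50 without those libraries. The part of depth in these relations was not tested beyond these values. In contrast, r of bta-miR-29b with the blood and immune list was 0.77 without the 2 shallowest libraries.

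The miRNA outside its own family that each member most resembled over the 20 bulls was found among 190 or 191 miRNAs with a median of at least 50 reads, by Pearson's r of the log2 levels, as a description. bta-miR-152 was most like bta-miR-30e-5p (r = 0.85) and bta-miR-29b most like bta-miR-151-5p (r = 0.84). bta-miR-148b was most like bta-miR-30d (r = 0.77) and bta-miR-29a most like bta-let-7f (r = 0.76). The resemblance was weaker for bta-miR-148a, with bta-miR-195 (r = 0.63), and for bta-miR-29c, with bta-miR-16b (r = 0.55). These points share their library, depth and scaling.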

How the data were processed

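Small RNA-seq values of spermatozoa from 10 HF and 10 LF bulls were used, with groups taken from the labels. The authors clipped adapters, kept reads within a length window, removed other short RNA species, aligned the rest with Bowtie to the ARS-UCD1.2 assembly plus a Y chromosome and counted mature miRBase miRNAs with miRDeep2. The submitters' notes name FastQC 0.11.8, cutadapt 2.6, R 3.4 and edgeR 3.5, while the paper gives other versions of cutadapt, R and edgeR. The deposited values are a signal per miRNA and library, counts per library size scaled by the TMM method of edgeR, although the table is described as counts. Such scaling holds the bulk of miRNAs level, so that a change shared by most of them would not be seen.

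Each library's values were divided by the value of 1 read, and 95.0% of the values above 0 came out whole to within 0.02 of a read, as did all 120 values of the 6 members. In HF bull 6 the lowest value was below that of 1 read, so that its recovered reads are less certain, although 95.2% of its values were whole. miRNAs with a value under 1 in at least 10 bulls were removed, which left 435 of 1029. The groups were compared with limma 3.58.1 (R 4.3.3, variance trend) on log2(value + 1), without covariates and with Benjamini-Hochberg adjustment over the 435. Since the values were not counts, the design's count tests (edgeR 4.0.16, DESeq2 1.42.0) were run on the recovered reads as alternatives. Single values were compared by permutation tests with 100000 resamples (numpy 2.4.6). The fits were tested on simulated data. Alternatives were other pseudocounts, filters and scalings and leaving out bulls.

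The members, the lists and the tests were chosen with earlier results of these data known. Named were the 6 members, other rows of both families (a family name followed by a letter), the members of the fixed lists and the miRNA most like each member. The criterion of a shared seed was not applied and no sequence is shown, since mature sequences were not used here. Coordinates are not given, since the gene table's assembly differs from the authors' build, and only the order of genes was read from it. The fertility index, AI centre and batch of each bull were not used here. P-values measure the spread between bulls, each of which was 1 pool of ejaculates.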

Additional observations from a re-analysis of the deposited data

How the results depend on the processing

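No member passed the thresholds in any fit, and the smallest unadjusted p-value was 0.103, for bta-miR-148a without LF bull 4 (limma). bta-miR-29b, bta-miR-148a, bta-miR-148b and bta-miR-152 kept their direction in every fit in which they were tested, but came close to 0 in some. With each bull left out in turn, their log2 fold changes lay between 0.0713 and 0.286, between -0.220 and -0.111, between 0.0047 and 0.141 and between 0.0036 and 0.246, the lowest for bta-miR-148b and bta-miR-152 being without LF bull 11. The directions of bta-miR-29a and bta-miR-29c, both near 0, were not kept. Their log2 fold changes were 0.0129 and 0.0253 by the quasi-likelihood test, 0.0138 and 0.0284 by the likelihood ratio test and 0.0473 and 0.0650 without the deepest and the shallowest library, and that of bta-miR-29c was 0.0100 without the 2 shallowest, a choice made after seeing the data. With each bull left out in turn they lay between -0.0911 and 0.0338 for bta-miR-29a and between -0.0473 and 0.0505 for bta-miR-29c. The log2 ratio differences between the groups lay between -0.0699 and 0.0655 for bta-miR-29a to bta-miR-29c, between -0.29 and -0.18 for bta-miR-148a to bta-miR-148b and between -0.42 and -0.21 for bta-miR-148a to bta-miR-152, without an adjusted p-value under 0.05. The cause was not tested.

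The number of miRNAs past both thresholds, 9, became 4 with a pseudocount of 5, 15 without the filter and 0 of 158 tested when at least 10 reads were required in every bull, which left bta-miR-29b and bta-miR-29c out and 5 at an unadjusted p-value under 0.05 (limma). It lay between 7 and 15 with each bull left out, and was 15 without HF bull 6 and 14 without LF bulls 1, 11 or 13. The order of the members, with 4 of 5 steps past the test, held with every pseudocount and without the deepest and shallowest library. Of the 15 pairs of members, 5 were correlated with the deposited scaling, 8 with CPM of the counted reads, 0 with CPM after bta-miR-100, the most abundant miRNA, was left out of the totals, and 0 without the 2 shallowest libraries. These 3 settings were chosen after seeing the data. Under them r of bta-miR-29b with the blood and immune list was 0.75 to 0.78. No paired analysis was possible because the groups share no replicate numbers, each bull having a number of its own. With 10 bulls a group and medians of 41.5 to 68.5 reads, depth limits what can be seen of bta-miR-29b and bta-miR-29c.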
